A study of Homo sapiens with 12 samples.

Results

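The Schlafen genes examined here are SLFN5, SLFN11, SLFN12 and SLFN13, 4 neighbouring genes of human chromosome 17 that were taken by their gene symbols from a table of 56508 gene symbols. H211 and H82, established human small cell lung cancer lines, had been cultured with 1 µM ORY-1001, an inhibitor of the demethylase LSD1, or with its vehicle, PBS in the labels, and their messenger RNA was sequenced. The groups were H211 with ORY-1001, H211 control, H82 with ORY-1001 and H82 control, with 3 libraries each and 12 in all, and the labels call both lines wild type. The labels give 7 days of treatment and the treatment protocol gives 10 days, and each line stands for its own background only. The labels do not state separate cultures for the replicates of a group, so p-values cover the spread between libraries alone, and that spread may be technical. Levels are in rescaled TPM, a length-corrected transcript abundance (TPM) whose library totals differ, as after a rescaling, so levels of different genes can be set side by side. Sequencing depth is unknown for these values, and they carry no counting interval. In such bulk samples, fewer cells that express a gene and less RNA per cell cannot be told apart.

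Schlafen proteins share an N-terminal core that in some of them can cut transfer RNA, and several of their genes are induced by type I interferon. SLFN11 carries in addition a helicase-like domain, binds replication protein A on stressed replication forks and blocks their restart. It is studied in small cell lung cancer because tumours that express it respond better to platinum, topoisomerase and PARP inhibitors than tumours in which it is silenced. LSD1, the product of KDM1A, removes methyl groups from histone H3 within gene-repressing complexes.

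On GENCODE release 29 (GRCh38) the members lie within 205.8 kb. SLFN5 occupies chromosome 17, 35243036 to 35273655, on the forward strand. SLFN11 (35350305 to 35373701), SLFN12 (35411060 to 35433283) and SLFN13 (35435096 to 35448837) follow on the reverse strand. Promoter sequence was at hand for SLFN11 and SLFN12 from RefSeq (GRCh38.p14), and it is shown because silencing of SLFN11 by methylation of its promoter is known from other studies. Both stretches are written 5′ to 3′ on the reverse strand, upstream of the annotated gene, with CG dinucleotides in capitals. The first spans chr17:35373702-35373871 and the second chr17:35433284-35433424.
SLFN11: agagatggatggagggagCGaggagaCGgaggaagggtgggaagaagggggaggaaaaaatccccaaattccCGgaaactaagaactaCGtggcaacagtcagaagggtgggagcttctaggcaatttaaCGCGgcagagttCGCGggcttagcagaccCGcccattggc
SLFN12: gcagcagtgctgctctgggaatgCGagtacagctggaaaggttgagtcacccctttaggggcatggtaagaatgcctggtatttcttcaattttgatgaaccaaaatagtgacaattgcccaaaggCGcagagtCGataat
The SLFN11 stretch holds 9 CG dinucleotides in 170 bases and the SLFN12 stretch 3 in 141 bases. Over the 250 bases before the RefSeq start, SLFN11 had 15 and SLFN12 had 9, and 42.9% and 54.1% of 35116 promoters had at least as many. The ETS core GGAA, searched on both strands, matched 5 times in each of these windows, as often or more often in 18.6% of promoters. The STAT palindrome TTCNNNGAA, also searched on both strands, matched once before SLFN11, 182 bases before the start and overlapping 2 of the ETS cores, and did not match before SLFN12; 6.57% of promoters hold it. The interferon response element, GAAA followed after 2 free bases by GAAA, was searched on both strands and matched neither window; 3.02% of promoters hold it. DNA methylation was not measured in these libraries, and a match describes letters only.

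The libraries carried the markers of their lines. NEUROD1, a neuronal factor, lay between 1.4 and 2.1 in H211 and between 123 and 139 in H82. POU2F3, the tuft-cell factor, lay between 246 and 285 in H211 and between 1.28 and 2.72 in H82. KDM1A lay between 181 and 195 in all 12 libraries; an inhibitor of the enzyme need not alter its transcript. Libraries also carried blood-cell transcripts to unequal extents. The summed level of 18 blood markers, all of them present in the table, ran from 56.3 to 74.8 in H211 with ORY-1001, 69.2 to 293 in H211 controls, 47.3 to 154 in H82 with ORY-1001 and 59.9 to 78 in H82 controls. Of the 12 markers tested, limma called 0 in H211 (1 at an unadjusted p under 0.05; median log2 difference -0.71), and in H82 MPO was higher and CORO1A lower with ORY-1001. The globin HBB was listed at 0 in 10 libraries, while fetal globin HBG2 reached 53 and HBA1 26.2. The neutrophil elastase ELANE was at 0 in 9 libraries; the other 3 were treated ones, at 2.63 in H211 (replicate 3) and 1.74 and 2.24 in H82 (replicates 1 and 2).

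Tests were made with limma on log2(rescaled TPM + 1), over genes at 1 or more in at least 3 libraries, with Benjamini-Hochberg adjustment over all 15456 genes so kept and a call at an adjusted p under 0.05. The scale understates the change of low genes. SLFN11 and SLFN13 passed this filter and SLFN5 and SLFN12 did not; the last 2 were tested in a fit without the filter, over 32093 genes. SLFN11 passed only through the 3 treated H82 libraries, so each of its comparisons with that group was favoured by the filter. The values without the filter are given beside them. SLFN13 passed only through the H211 libraries, so its comparisons of H211 with H82 were favoured likewise.

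SLFN11 was higher with ORY-1001 in H82, where the control cultures held almost none of it. The treated H82 libraries held 1.16, 1.23 and 1.5, and the H82 controls held 0.0233 in replicate 1 and were listed at 0 in replicates 2 and 3. Every treated library was above every control. On the log2 scale the rise was 1.19 (SE 0.15, limma adjusted p = 7.41e-05), and 43.0% of all tested genes were called in this comparison, 19.1% as higher. Without the filter the limma adjusted p was 0.00019, among 20.1% of genes called and 9.12% called higher, and it stayed at or under 0.00466 in all 32 alternatives that could be fitted. At 1.30 the treated mean was still a low level, above that of 18.4% of tested genes in the same cultures; the control mean was above 1.08% of them.

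In H211 SLFN11 did not pass the test. The H211 libraries with ORY-1001 held 0.178, 0.570 and 0.595, and the H211 controls held 0.433, 0.252 and 0.0331. The groups overlapped, since the lowest treated library lay under 2 of the controls. The log2 difference was 0.22 with a 95% interval of -0.10 to 0.55 (SE 0.15, limma adjusted p = 0.342), where 18.6% of all tested genes were called and 8.95% were higher. It was 0.37 without H211 ORY-1001 replicate 1, 0.15 without H211 ORY-1001 replicate 3 and 0.10 without H211 control replicate 3, and passed in none of these fits (limma adjusted p = 0.124, 0.623 and 0.708). The response of SLFN11 was smaller in H211 than in H82 by 0.96 on the log2 scale (log2 difference of effects -0.96, SE 0.21, limma adjusted p = 0.00489; 32.1% of genes called, 17.8% higher and 14.3% lower). Without the filter the limma adjusted p of this difference was 0.00914. An earlier account of these data set apart 4 libraries by their blood transcripts: H82 ORY-1001 replicate 3, H211 control replicates 1 and 2, and H211 ORY-1001 replicate 3. Leaving them out keeps replicate 3 as the only H211 control, so each such fit rests on 1 library for that group. Without these 4 and without the filter, the difference of effects was -0.73 (limma adjusted p = 0.0988), and over all alternatives the adjusted p ran from 0.00206 to 0.0988.

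Between the lines, the level of SLFN11 depended on the treatment compared. With ORY-1001 it was lower in H211 than in H82, with all 3 H211 libraries under all 3 H82 libraries (log2 difference -0.68, SE 0.15, limma adjusted p = 0.00119; 80.2% of genes called, 39.7% higher and 40.6% lower). Without the filter the limma adjusted p was 0.00211. In the controls H211 held every value above the highest in H82, but the difference did not pass (log2 difference 0.29, SE 0.15, limma adjusted p = 0.0948; 80.5% of genes called, 39.7% higher and 40.8% lower). It passed without H211 control replicate 3 (log2 difference 0.41, limma adjusted p = 0.025), the library with the lowest value of that group. It also passed with a pseudocount of 0.1 and with library weights (limma adjusted p = 0.0208 and 0.041). Without the filter and without the 4 libraries set apart by blood transcripts the log2 difference was 0.04. Only replicate 3 of the H211 controls, with SLFN11 at 0.0331, was left in that group. Over the 12 fits that left out 1 library without the filter, the limma adjusted p ran from 0.0361 to 0.389. The order of means was H82 with ORY-1001 at 1.30, H211 with ORY-1001 at 0.448, H211 controls at 0.239 and H82 controls at 0.00775. The step between the H211 groups and the step from H211 to H82 controls did not pass.

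**Figure D1:**
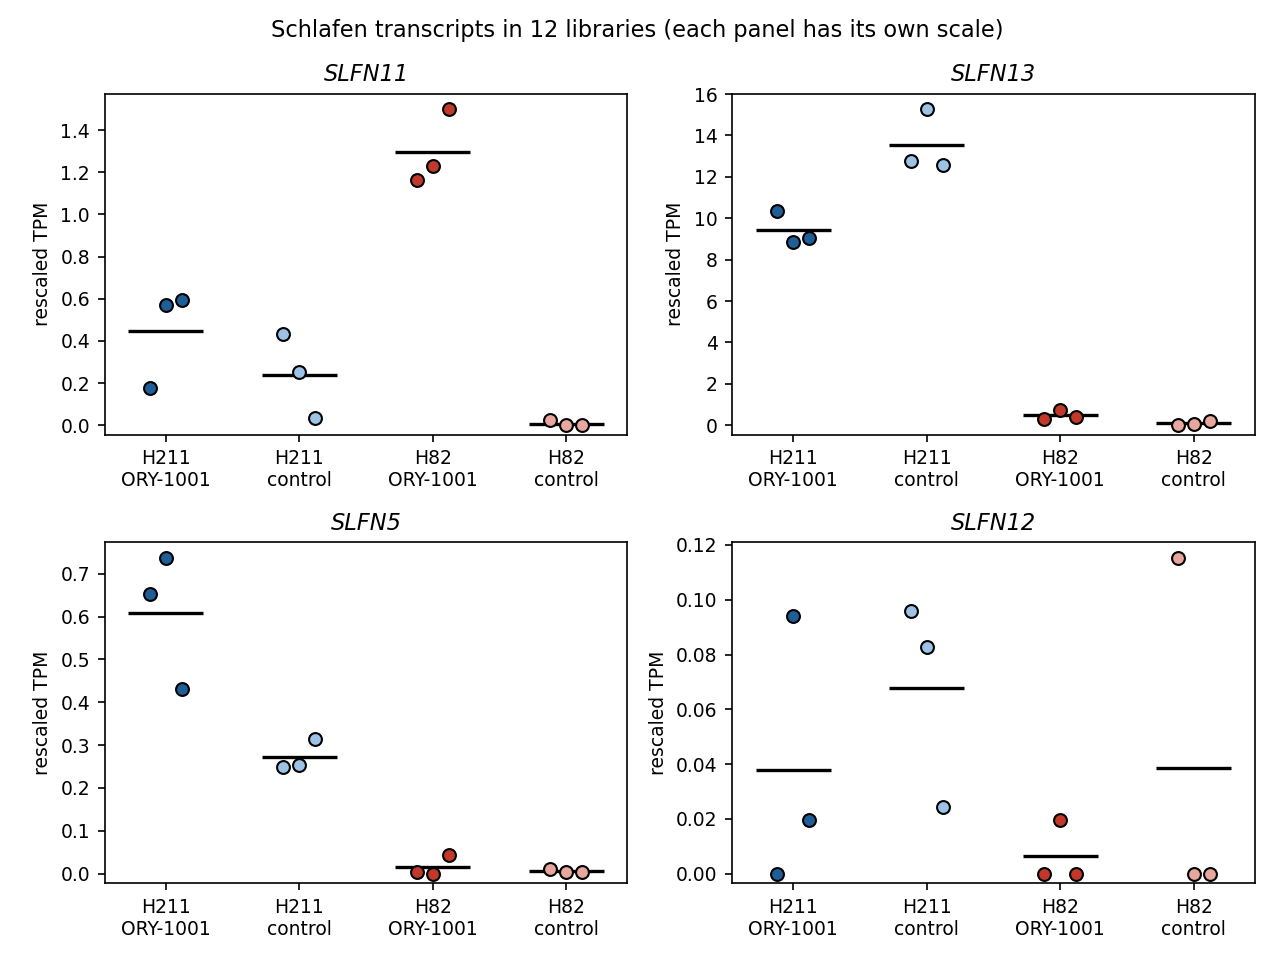
Levels of SLFN11, SLFN13, SLFN5 and SLFN12 in rescaled TPM for every library of H211 and H82 with ORY-1001 and control; points are libraries, bars are means of 3, and each panel has its own scale. SLFN11 was highest in the treated H82 libraries (1.16 to 1.5), SLFN13 was an H211 transcript (8.86 to 15.3), and SLFN12 stayed at or under 0.115.

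SLFN13 codes for a ribonuclease that cuts transfer and ribosomal RNA and restricts HIV. It was the most abundant of the 4 genes in H211, and with ORY-1001 it was lower in H211 and higher in H82. The H211 libraries with ORY-1001 held 10.4, 8.86 and 9.05, and the H211 controls held 12.8, 15.3 and 12.6, so the groups did not overlap. The means were 9.42 ± 0.818 with ORY-1001 and 13.5 ± 1.5 in controls (SD, n = 3 each), a level 1.44-fold lower (log2 difference -0.48, SE 0.12, limma adjusted p = 0.0208; 9.61% of genes called lower). The call was missed without H211 control replicate 2 (log2 difference -0.39, adjusted p = 0.0851), which held the highest SLFN13 value and the highest sum of blood markers, at 293. The sums were 69.2 to 293 in H211 controls and 56.3 to 74.8 with ORY-1001, and their part in the fall was not tested. The call was also missed without H211 ORY-1001 replicate 2 or 3 (0.0678 and 0.0652) and with a pseudocount of 0.1 (0.321). Without the 4 libraries set apart by blood transcripts the log2 difference was -0.36, with replicate 3 as the only H211 control left. Over all alternatives the adjusted p ran from 0.00208 to 0.565.

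In H82 the same gene was higher with ORY-1001, at low levels. The treated libraries held 0.321, 0.723 and 0.410, and the H82 controls held 0.0294, 0.0585 and 0.215, again without overlap. The means were 0.485 ± 0.211 with ORY-1001 and 0.101 ± 0.0996 in controls (SD, n = 3 each), a ratio of 4.81 (log2 difference 0.43, SE 0.12, limma adjusted p = 0.0162; 19.1% of genes called higher). This call was lost without H82 control replicate 1 (log2 difference 0.38, adjusted p = 0.0549) or H82 ORY-1001 replicate 2 (0.31, 0.0652), without the 4 libraries set apart by blood transcripts (0.46, 0.052) and with a pseudocount of 5 (0.10, 0.215). Over all alternatives its adjusted p ran from 0.00231 to 0.215. The difference of effects, H211 minus H82, was -0.90 (SE 0.18, limma adjusted p = 0.00257), where 32.1% of genes were called and 14.3% were lower. It passed in each of the 12 fits that left out 1 library (limma adjusted p = 0.00251 to 0.008) and missed the threshold without the 4 libraries (-0.82, 0.0662), in a range of 0.00196 to 0.144.

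SLFN13 differed far more between the lines than between treatments. H211 exceeded H82 by 2.82 on the log2 scale with ORY-1001 and by 3.72 in the controls (SE 0.12 each, limma adjusted p = 1.08e-09 and 8.89e-11), 19.4-fold and 134-fold in means. Of all tested genes, 80.2% were called with ORY-1001 and 80.5% in the controls, 39.7% as higher in each. All 37 alternatives of each comparison kept the SLFN13 call. Without the filter, the 12 fits that left out 1 library gave limma adjusted p up to 2.58e-07 with ORY-1001 and 3.67e-08 in controls. The means ran, from high to low, H211 controls, H211 with ORY-1001, H82 with ORY-1001 and H82 controls, and each of the 3 steps passed its test, with the limits given above for the steps within a line. Genes abundant in H211 had low values in the H82 libraries too, and the H82 level of SLFN13 can be set beside them. In treated cultures SLFN13 in H82 stood at 5.14% of its H211 level, where POU2F3 stood at 0.662%. In control cultures SLFN13 stood at 0.745% and POU2F3 at 0.82%. Over the genes with a mean of 100 or more in H211, 1416 in treated and 1381 in control cultures, the first percentile of the H82 level stood at 0.847% with ORY-1001 and 0.81% in controls. Whether such traces contribute to SLFN13 in H82 was not tested.

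SLFN11 and SLFN13 are also close in sequence. Of 6226 distinct stretches of 31 bases in the annotated SLFN11 transcripts, 873 also occur in SLFN13, which has 9422, and 14.1% occur in any other Schlafen gene examined. SLFN11 shared 17 with SLFN5 and 0 with SLFN12. How reads in shared stretches were divided between SLFN11 and SLFN13 is not known, so the smaller value of the pair in a library is uncertain. That value is SLFN13 in the treated H82 libraries, at 0.321 to 0.723 beside SLFN11 at 1.16 to 1.5, and SLFN11 in H211, at 0.0331 to 0.595 beside SLFN13 at 8.86 to 15.3. In the H82 controls it is SLFN11 too, at 0.0233, 0 and 0 beside SLFN13 at 0.0294, 0.0585 and 0.215. Whether shared reads contributed to any of these values was not tested.

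SLFN5 codes for a nuclear Schlafen protein that acts as a transcriptional co-repressor of interferon-stimulated genes. It was near 0 in H82 and low in H211, where it was higher with ORY-1001. The H211 libraries with ORY-1001 held 0.653, 0.737 and 0.432, and the H211 controls held 0.248, 0.253 and 0.314. Each treated library lay above each control, and the ratio of means was 2.24. In the fit without the filter the log2 difference was 0.33 (SE 0.06, limma adjusted p = 0.0109; 7.62% of genes called, 3.75% as higher and 3.87% as lower). That call held in each of the 12 fits that left out 1 library, with adjusted p between 0.000706 and 0.0426, and an exact permutation test of 3 against 3 libraries could not have gone below p = 0.1. The lowest treated value, 0.432, was that of replicate 3, the treated H211 library with LYZ at 16. Without the 4 libraries set apart by blood transcripts the log2 difference was 0.37, with replicate 3 as the only H211 control left.

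The H82 libraries with ORY-1001 held SLFN5 at 0.00375, 0 and 0.0437, and the H82 controls at 0.0109, 0.00404 and 0.0046. These values overlap (log2 difference 0.01, SE 0.06, limma adjusted p = 1 without the filter; 20.1% of genes called). Set against H82, H211 was higher in SLFN5 by 0.66 with ORY-1001 and by 0.34 in the controls (SE 0.06 each, limma adjusted p = 7.46e-06 with ORY-1001 and 0.0012 in controls; 45.4% and 45.1% of genes called, 22.4% as higher in each). The difference of effects was 0.32 (SE 0.09, limma adjusted p = 0.0418; 14.0% of genes called, 7.86% higher and 6.16% lower), and 11 of the 12 fits that left out 1 library lost it, with adjusted p up to 0.088. The order of means was H211 with ORY-1001 at 0.607, H211 controls at 0.272, H82 with ORY-1001 at 0.0158 and H82 controls at 0.00651, and the last step did not pass.

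SLFN12 codes for a ribonuclease of leucine transfer RNA that is activated when small molecules glue it to the phosphodiesterase PDE3A. It was at or near 0 throughout. The H211 libraries with ORY-1001 held 0, 0.0942 and 0.0196, the H211 controls 0.0961, 0.0827 and 0.0242, the H82 libraries with ORY-1001 0, 0.0197 and 0, and the H82 controls 0.115, 0 and 0. Treated and control libraries overlapped in each line, and no comparison passed without the filter (limma adjusted p = 0.535 to 0.993). At such levels a change of SLFN12 was not detectable. Among the other Schlafen genes in the table, SLFN12L reached 0.215 in replicate 3 of the H211 controls and 0.0134 in replicate 2, with 0 elsewhere, and SLFN14 lay at or under 0.0458 and SLFNL1 at or under 0.172 in every library. None of these 3 reached the filter.

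**Figure D2:**
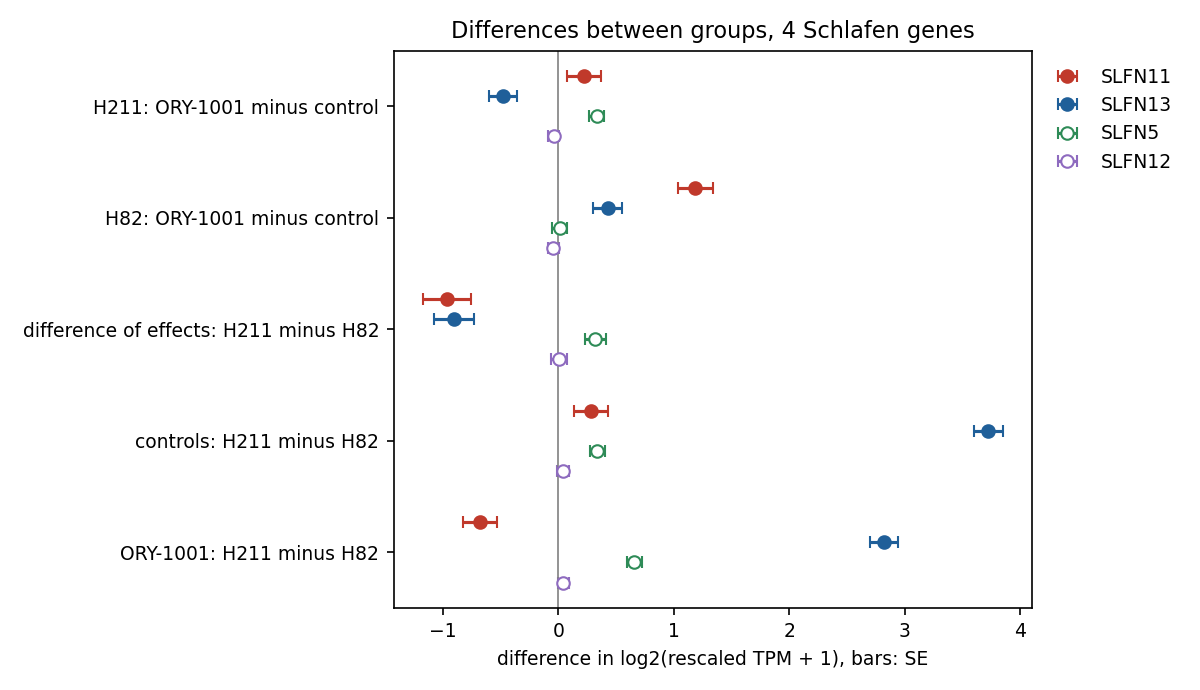
Differences between groups in log2(rescaled TPM + 1) for the 4 genes, with SE as bars; filled points come from the fit with the filter on low values and open points from the fit without it. SLFN11 and SLFN13 rose in H82, SLFN13 fell in H211 and SLFN5 rose in H211, while SLFN12 lay near 0 in all 5 comparisons.

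Blood-cell transcripts differed between the treated and control libraries of H82, and myeloid cells are known to express Schlafen genes. In H82, lysozyme (LYZ) was at 16, 18.7 and 0.583 with ORY-1001 and between 0.198 and 0.363 in controls. MPO was at 8.71, 8.55 and 24.3 with ORY-1001 and at or under 0.0849 in controls, and TYROBP was at 1.9, 2.91 and 0.439 with ORY-1001 and at 0 in all 3 controls. The sum of the blood markers without the globins was 46.3, 48.8 and 39.4 with ORY-1001 and 23.2, 23.1 and 19.4 in controls of H82, so it parted the groups as SLFN11 did. SLFN11 was highest, at 1.5, in the treated replicate 3, in which LYZ and TYROBP were lowest and MPO highest of the treated libraries. Replicate 2 of the H211 controls, with LYZ at 23, TYROBP at 10.9 and S100A8 at 58.1, held SLFN11 at 0.252. MPO in the H211 controls was at 24.3, 0.493 and 0.758, beside SLFN11 at 0.433, 0.252 and 0.0331. In H211 with ORY-1001, MPO was at 0.207, 0.192 and 8.57, beside SLFN11 at 0.178, 0.570 and 0.595. Without the filter and without the 4 libraries set apart by blood transcripts, the SLFN11 rise in H82 was 1.13 (limma adjusted p = 0.00466); H82 ORY-1001 replicates 1 and 2 remained in that fit. The part of blood cells in the H82 rise was not tested further.

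**Figure D3:**
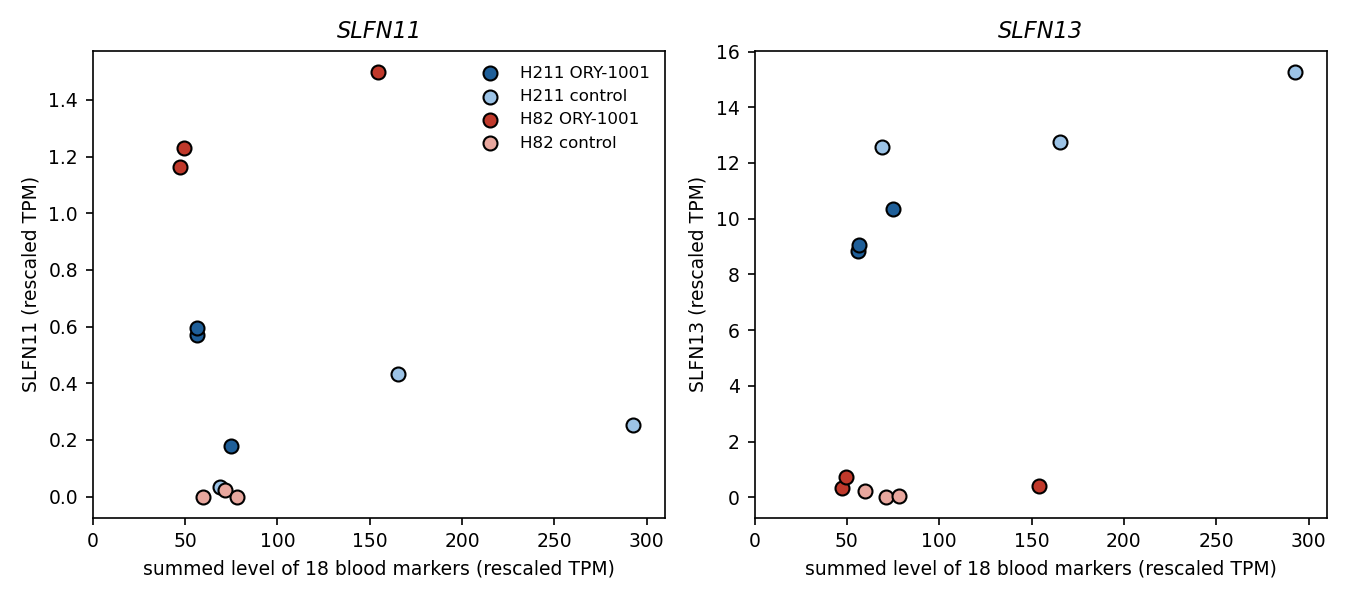
SLFN11 (left) and SLFN13 (right) in rescaled TPM against the summed level of 18 blood markers in each of 12 libraries. The sums include CORO1A, which was at 10.8 to 32.4 in every library. The treated H82 libraries held SLFN11 at 1.16, 1.23 and 1.5 with sums of 47.3, 49.7 and 154 (46.3, 48.8 and 39.4 without globins). The H82 controls held 0.0233, 0 and 0 with sums of 71.4, 78 and 59.9 (23.2, 23.1 and 19.4 without globins). The H211 controls held 0.433, 0.252 and 0.0331 with sums of 166, 293 and 69.2 (57.1, 197 and 28.5 without globins).

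Within 500000 bases of the members, 11 other genes were tested. In H211, 0 were higher and 2 lower with ORY-1001, and in H82, 1 was higher and 4 lower. Of all tested genes, 8.95% were higher and 9.61% lower in H211 and 19.1% higher and 23.9% lower in H82, so nothing particular to the neighbourhood is read from these counts. The gene higher in H82 was LINC02001, a long non-coding RNA 194 kb from the SLFN11 start, at 36.7 with ORY-1001 and 22.6 in controls (log2 difference 0.68, limma adjusted p = 3.69e-06). AP2B1, a clathrin adaptor subunit, and TAF15, an RNA-binding protein, were lower in both lines: by 0.30 and 0.29 in H211 and by 0.27 and 0.37 in H82 on the log2 scale. RASL10B, a small GTPase, and RDM1 were lower in H82 by 0.31 and 0.88. On the SLFN5 side of the cluster ZNF830, LIG3, RFFL, RAD51D and NLE1 did not pass in either line, with log2 differences between -0.38 and 0.20 in H211 and between 0.02 and 0.12 in H82. RFFL, an E3 ubiquitin ligase, resembled SLFN13 in its levels, at 6.52 with ORY-1001 and 8.74 in controls of H211 and at 0.308 and 0.196 in H82.

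**Figure D4:**
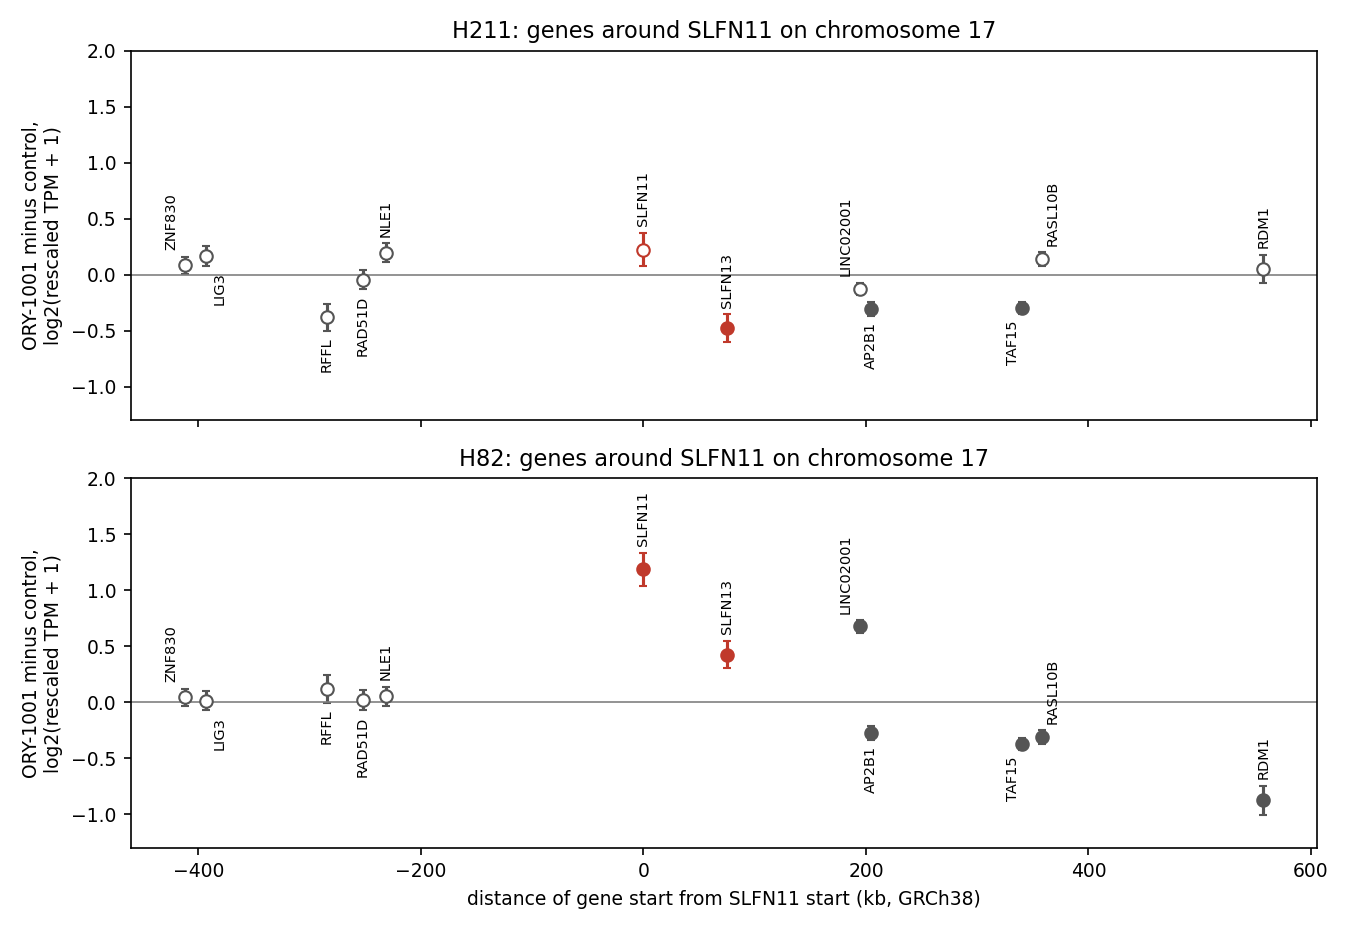
Difference between ORY-1001 and control in log2(rescaled TPM + 1), with SE, for SLFN11, SLFN13 and 10 of the 11 tested genes around them in H211 (top) and H82 (bottom), placed by the distance of their starts from that of SLFN11; filled points passed the test and Schlafen genes are red. In H82 the rises of SLFN11, SLFN13 and LINC02001 stood among genes at or below 0.12.

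Other genes with a similar course over the 12 libraries were sought by Pearson's r of the log2 values, among 11347 genes with a group mean of 5 or more. Nearest to SLFN11 were TUSC2 (r = 0.964), TSPAN33 (0.957) and TYSND1 (0.956), which averaged 51.2, 79.9 and 6.29 in H82 with ORY-1001 and 35.4, 47.1 and 3.66 in H82 controls. In all, 5 genes reached 0.95 for SLFN11. For SLFN13, whose profile parts the lines, 1882 genes did, and TCF19 (0.998), SQLE (0.996) and FZD8 (0.996) came first. These values describe 12 libraries of 4 groups and carry no test.

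Of 34 listed interferon-induced genes 23 were tested, and those called with ORY-1001 were all higher in either line. In H211, 17 rose and 0 fell (median log2 difference 0.54 against -0.0021 over all tested genes), where 8.95% of all genes were called higher. In H82, 10 rose, 0 fell and 13 did not pass (median 0.23 against -0.016), where 19.1% of all genes were called higher. The difference of effects was called higher in H211 for 13 of the 23 and lower for 2, against 17.8% and 14.3% of all genes. IFITM3, a membrane restriction factor, averaged 86.5 with ORY-1001 and 9.3 in controls of H211, and 8.81 and 4.79 in H82. USP18, which removes ISG15 from proteins, averaged 36.8 with ORY-1001 and 26.3 in controls of H211, and 14 and 2.16 in H82. The RNA sensor IFIH1 averaged 19.7 and 9.44 in H211, and 0.873 and 0.0779 in H82. In interferon signalling, 4 of 14 rose and 0 fell in H211, and 2 rose and 3 fell in H82 (medians 0.18 and 0.05). Of all genes, 8.95% rose and 9.61% fell in H211 and 19.1% rose and 23.9% fell in H82, so the H82 counts lay near the background. IRF1 averaged 29.7 and 8.46 in H211, and 2.88 and 1.22 in H82, and passed in both lines.

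Of 18 tested genes of the replication fork response, where SLFN11 acts, 0 rose and 6 fell in H211, against 8.95% and 9.61% of all genes (median -0.07). In H82, 6 rose and 6 fell, against 19.1% and 23.9% of all genes (median 0.04). The transcript of CDT1, the licensing factor whose protein SLFN11 helps to degrade, averaged 43.6 with ORY-1001 and 99.3 in controls of H82 (log2 difference -1.17, limma adjusted p = 4.25e-06). In H211 it averaged 49.9 with ORY-1001 and 58.1 in controls (limma adjusted p = 0.165). Whether the CDT1 transcript level is linked to SLFN11 was not tested. MCM3, a helicase subunit, was lower in both lines, by 0.22 in H211 and by 0.46 in H82 on the log2 scale. DHX9, an RNA helicase, was higher in H82, at 165 with ORY-1001 and 107 in controls.

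Of 11 tested targets of the drugs for which SLFN11 serves as a marker, 0 rose and 3 fell in H211 and 4 rose and 2 fell in H82 (medians -0.09 and 0.05). Of all genes, 8.95% were called higher and 9.61% lower in H211, and 19.1% higher and 23.9% lower in H82. The 3 falls in H211 and the 4 rises in H82, of 11 genes, lay above these shares. With so few genes nothing is read from them. TOP2A, the target of etoposide, averaged 152 with ORY-1001 and 184 in controls of H211 and 144 and 205 in H82 (limma adjusted p = 0.000157 and 5.74e-07). PARP2 was higher in H82, at 23.4 with ORY-1001 against 17.6 in controls, and MGMT, which repairs alkylated guanine, lower, at 11.3 with ORY-1001 against 16.5 in controls. Among 17 recombination repair genes 1 rose and 2 fell in H211 and 4 rose and 1 fell in H82 (medians -0.10 and 0.03). In both directions together these were no more than the 18.6% of all genes called in H211 and the 43.0% in H82. BARD1, the partner of BRCA1, averaged 4.67 with ORY-1001 and 6.35 in controls of H211, and MRE11, a nuclease that resects broken ends, 25.9 with ORY-1001 and 33.2 in controls of H82.

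Enzymes known to silence genes, among them EZH2 of the polycomb complex that has been linked to SLFN11 silencing, made up a list of 19 tested genes. EZH2 was not among the called genes with the smallest p in either line, and its level is not given here. Of the 19 genes, 0 rose and 4 fell in H211 and 3 rose and 7 fell in H82 (medians -0.08 and -0.05). Of all genes, 8.95% were called higher and 9.61% lower in H211, and 19.1% higher and 23.9% lower in H82. DNMT3B, a de novo DNA methyltransferase, averaged 5.33 with ORY-1001 and 7.34 in controls of H211 and 2.13 and 4.53 in H82 (limma adjusted p = 0.0083 and 1.94e-05). RBBP4, a histone-binding subunit shared by several repressors, averaged 347 with ORY-1001 and 479 in controls of H82. Of 10 ETS factors, 1 rose and 3 fell in H211 and 0 rose and 3 fell in H82 (medians -0.12 and -0.04). Among all genes 8.95% rose and 9.61% fell in H211, and 19.1% rose and 23.9% fell in H82. SPIB fell in H211 to 11.2 with ORY-1001, against 57.4 in controls, and ETS1 was lower in H82, at 10.6 with ORY-1001 against 14.4 in controls.

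Of 10 ribotoxic stress genes, the kinases and partners that respond when transfer RNA is cut, 0 rose and 2 fell in H211 and 0 rose and 3 fell in H82 (medians -0.05 and -0.08). Among all genes 9.61% fell in H211 and 23.9% in H82, and 18.6% and 43.0% were called in either direction. MAP2K7, a kinase of the JNK pathway, averaged 20.2 with ORY-1001 and 29.1 in controls of H82. Among partners of SLFN12, PDE3A did not reach the filter. PDE3B, a related phosphodiesterase, was lower in H82, at 6.39 with ORY-1001 and 7.65 in controls (limma adjusted p = 0.0462).

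**Figure D5:**
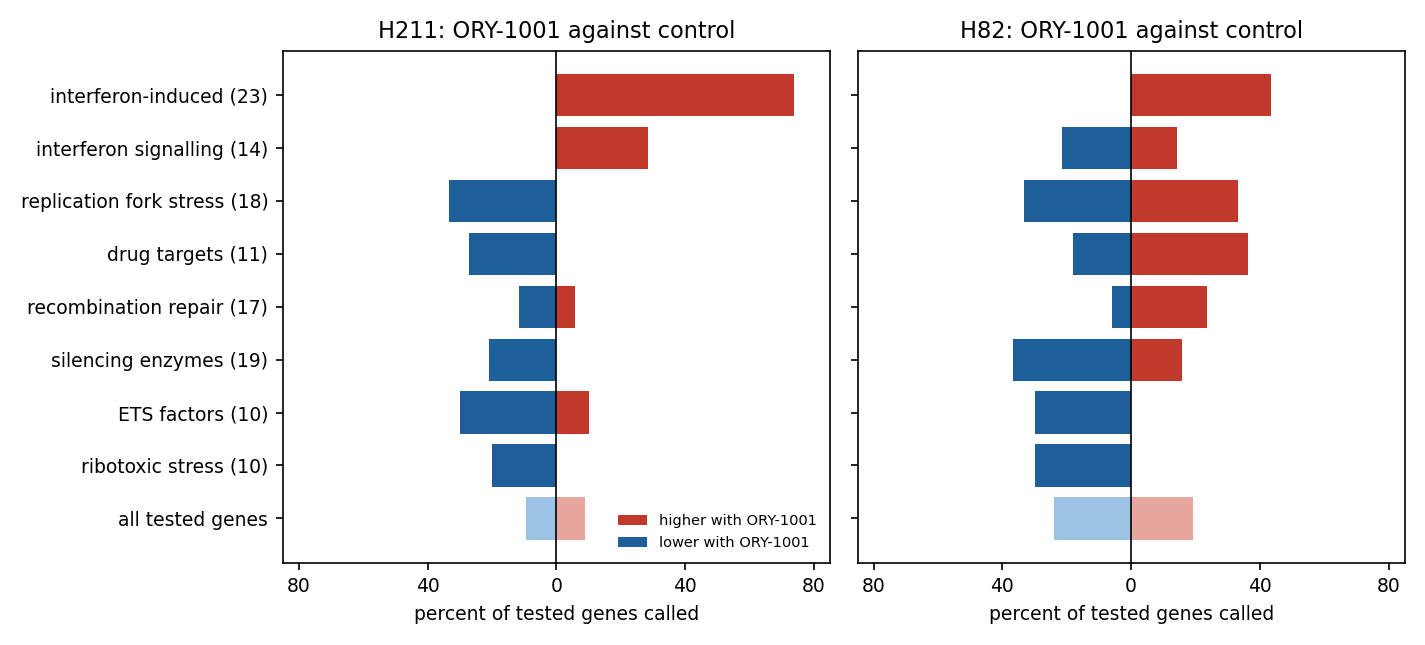
Share of tested genes of each list that were called higher (right) or lower (left) with ORY-1001 in H211 and H82, with the number tested in parentheses and all tested genes as the lowest bar. Of interferon-induced genes 17 of 23 were higher in H211 and 10 of 23 in H82.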

How the data were processed

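One table of the whole series, with a column for each of the 12 libraries, was used, and every column matched a sample description. The submitters' processing notes name Trimmomatic 0.36, STAR 2.5.2b, featureCounts in Subread 1.5.2, DESeq2, Salmon 1.1.0, sleuth 0.30.0, R 4.0.4 and the hg38 build, without roles or an annotation release. The signal deposited by the authors is a rescaled TPM, judged from column totals between 967415 and 1111988 and median-of-ratios factors of 0.9928 to 1.031. Plain TPM had been planned for, and the planned log-scale tests were kept.

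Group means of log2(value + 1) were estimated over the 12 libraries together in limma 3.58.1 (R 4.3.3; eBayes with trend, two-sided), a fit tested on simulated data. Contrasts were ORY-1001 against control in each line, the difference of these effects, and H211 against H82 within each treatment. Of 56508 rows, 24415 were at 0 throughout and 27 carried dates in place of symbols and were not named. Members and gene lists were chosen with earlier results of these data known. From each list, genes were named from among the called ones with the smallest p in each line, at most 3, and neighbours and similar genes by position and by r; a few genes that meet the rule are not reported here. GENCODE 29 matched 55883 symbols. Alternatives changed the pseudocount, filter, scaling, trend, weights, groups in the fit, replicate block and libraries.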

Additional observations from a re-analysis of the deposited data

Results flagged for a closer look

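The effect of ORY-1001 on SLFN11 differed between the lines by -0.96 on the log2 scale (H211 effect minus H82 effect; limma adjusted p = 0.00489), with a rise in H82 and no call in H211. SLFN11 entered that fit only through the treated H82 libraries; without the filter on low values the limma adjusted p was 0.00914, and 0.0988 when the 4 libraries set apart by blood transcripts were also left out (-0.73). The effect on SLFN13 differed by -0.90 (limma adjusted p = 0.00257), with a fall in H211 and a rise in H82; without those 4 libraries it was -0.82 (0.0662). Both were singled out because the test of the difference itself passed.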

How the results depend on the processing

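Of 459 alternative values for the counts of called genes and for SLFN11 and SLFN13, 421 kept their direction and their side of the threshold (counts: within 1.5 times), 0 reversed and 38 did not keep it. Without the 4 libraries set apart by blood transcripts, 559 genes were called in H211, against 2868, and 2899 for the difference of effects, against 4956; this fit has fewer libraries. Fits that leave out libraries without the filter were chosen after seeing the data. The other counts moved less than 1.5 times. The SLFN11 difference of effects was -0.73 without the filter and these 4 libraries. SLFN11 between controls reached the threshold with a pseudocount of 0.1 (1.45) and with library weights (0.35), and leaving out 1 library gave 0.17 to 0.41, with or without the filter. The SLFN13 rise in H82 was 0.10 with a pseudocount of 5, 0.46 without the 4 libraries with or without the filter, and 0.31 to 0.51 when 1 library was left out, with or without the filter; without the filter 4 of 12 such fits kept the call and those that lost it gave 0.31, 0.38, 0.40, 0.43 and 0.46. The SLFN13 fall in H211 was -0.52 with a pseudocount of 0.1, -0.36 without the 4 libraries with or without the filter, and -0.54 to -0.39 when 1 library was left out, with or without the filter; without the filter 2 of 12 such fits kept the call and the others gave -0.39, -0.44, -0.45, -0.48, -0.52 and -0.54. The SLFN13 difference of effects was -0.82 without the 4 libraries with or without the filter. The cause was not tested in any of these. With the filter SLFN11 was not tested without any treated H82 library or without the 4 libraries, and with at least 5 in 3 libraries SLFN5, SLFN11 and SLFN12 were not tested.

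With the replicate number as a block, SLFN11 in H82 kept 1.19 (limma adjusted p = 0.000428) and SLFN13 in H211 -0.48 (0.0349), and 6429 genes were called in H82 and 2497 in H211; the block ended no call of SLFN11 or SLFN13. Same-numbered libraries of a line did not deviate together (r = -0.0805 to 0.0449 over 6 pairs), not every library correlated best with its own number, and the labels do not say that numbers mark a shared culture or day. Rescaled TPM keeps no depth, so low values such as those of SLFN5 and SLFN12 have unknown counting error.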
